A study of Homo sapiens with 4 samples.

Results

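Kinesins are motor proteins that walk along microtubules on the energy of ATP. Some of them build the mitotic spindle, move chromosomes or lead the daughter cells through cytokinesis, and their genes are known to be transcribed mostly in G2 and mitosis and switched off when a cell leaves the division cycle. Others carry vesicles, organelles and ciliary cargo at all times, and most of these do not depend on division. The kinesin genes were taken by symbol, as every KIF name with a digit after it and KIFC1, KIFC2, KIFC3 and KIFAP3, which gave 44 of the 22679 named genes in the deposited files. They comprise 14 mitotic kinesins, 16 transport kinesins (KIFAP3, the non-motor subunit of kinesin-2, among them), 13 ciliary and other kinesins, and KIF9-AS1, an antisense RNA and no motor. Of the 43 motors and subunits, 31 reached 1 FPKM in some library, namely 12 mitotic, 13 transport and 6 ciliary and other kinesins.

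Poly(A) RNA was sequenced from IMR90 cells, a line of human lung fibroblasts, with 1 library in each of 4 groups, all at passage 16. OIS (oncogene-induced senescence) cells carried a retroviral ER:RasV12 fusion that 10 nM tamoxifen had activated for 8 days. H3.3cs1 cells carried a retroviral construct for Flag-tagged cleaved histone H3.3 and were taken at day 3 (early) or day 13 (late) after infection. Growing cells carried the empty retroviral vector pBabe, were taken at day 13 and, as far as the labels say, received no tamoxifen. The study asked whether cleaved H3.3 sets off a senescence programme and compared it with senescence by oncogenic RAS. Every construct was delivered by retrovirus. An empty-vector control of day 3 was not analysed here, so cleaved H3.3, recent infection and time in culture cannot be told apart at that time. OIS differs from growing in the RAS construct and in tamoxifen, and its day after infection is not stated here, so these cannot be told apart either. Between H3.3cs1 early and late, longer exposure to cleaved H3.3 and longer time in culture cannot be told apart.

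No group has a replicate, so every difference sets 1 library beside another, with no test, SD or p-value. Levels are in FPKM (fragments per kilobase of a transcript, scaled to the mapped fragments of its library), differences are on the log2(FPKM + 1) scale, and a gene is said to have risen or fallen where that difference was at least 2-fold. That scale understates the change of low genes. Fold sizes given for a gene are ratios of FPKM + 1, so they are smaller than the ratios of the FPKM printed beside them. A ratio or share of FPKM itself is named as such. Differences were compared over the 12183 genes that reached 1 FPKM or more in any of the 4 libraries. Fragment counts are unknown, and since at most 7.80% of the low loci of a library lay on a common step of values, no relative depth is given. HRAS stood at 3153 FPKM in OIS and between 41.9 and 49.8 FPKM in the other 3 libraries, as the label of OIS has it. All 8 fibroblast markers were above 1 FPKM in each library, and their summed level was 4905 FPKM in OIS, 6049 FPKM in H3.3cs1 early, 11066 FPKM in H3.3cs1 late and 10404 FPKM in growing. In OIS 4 of the 8 fell against growing, COL1A1 (-2.04), COL1A2 (-1.67), THY1 (-1.58) and PDGFRB (-1.35). In H3.3cs1 early COL1A1 fell (-1.16) and S100A4 rose (1.31), and in H3.3cs1 late 0 of the 8 passed 2-fold against growing. Endothelial markers (3 genes, summed FPKM 0.115 in OIS and at most 0.0129 in the others) and leukocyte markers (4 genes, at most 0.238) were near 0. Of 5 epithelial markers, EPCAM was at most 0.495 FPKM, CDH1 at most 0.116, and the list summed to 18.5 FPKM in OIS, 68.8 FPKM in H3.3cs1 early, 184 FPKM in H3.3cs1 late and 90.0 FPKM in growing, most of it KRT18. The part of these markers in the kinesin values was not tested.

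All 12 mitotic kinesins that reached 1 FPKM fell in OIS and in H3.3cs1 late, and 11 of the 12 fell in H3.3cs1 early. KIF23 is counted here and below through a locus joined with PAQR5. Over all compared genes, 8.17% were lower by 2-fold in OIS, 3.96% were so at the early time of H3.3cs1 and 5.47% at its late time. No mitotic kinesin rose. Their median difference was -2.89 in OIS (all genes 0.032), -1.70 in H3.3cs1 early (all genes -0.025) and -2.67 in H3.3cs1 late (all genes -0.040). KIF2B was listed at 0 in all 4 libraries, which can be a failed estimate, and KIF4B, a near-identical retrogene copy of KIF4A whose reads may be shared with it, stayed at or under 0.0253 FPKM. KIF15 passed the filter through the growing library alone, so a difference was built into its selection. Without the filter the same 12 of 14 members were lower in OIS. That count was fixed in advance, since a gene under 1 FPKM in every library cannot differ by 2-fold on this scale. It therefore says nothing on the selection. In bulk RNA, fewer dividing cells and less RNA per dividing cell cannot be told apart.

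**Figure D1:**
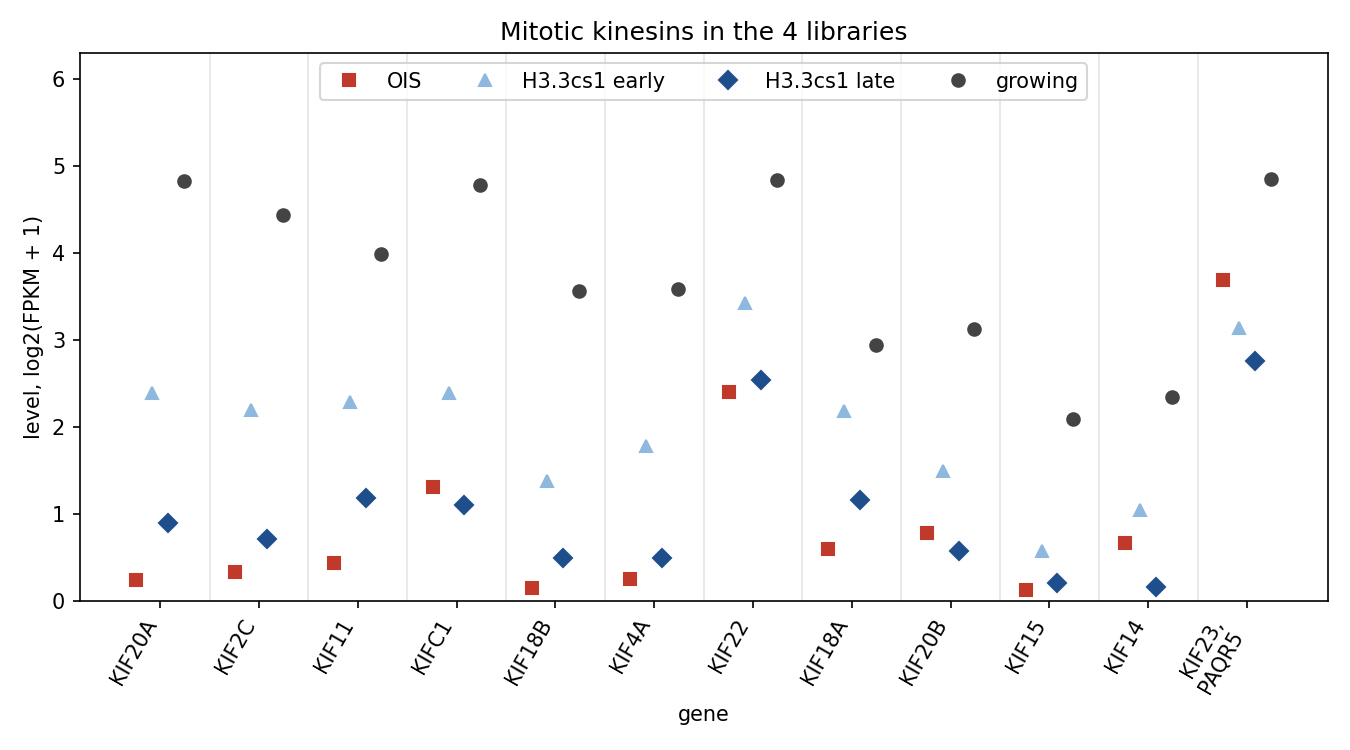
Level of each mitotic kinesin in log2(FPKM + 1), 1 point per library, genes ordered by their difference between OIS and growing with the largest fall at the left. Growing was the highest for all 12 genes, and KIF20A shows the widest gap, at 0.178 FPKM in OIS and 27.4 FPKM in growing.

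The kinesins of the central spindle and cytokinesis held both the largest and the smallest falls in OIS. KIF20A, a kinesin-6 that takes the chromosomal passenger complex to the spindle midzone, was at 0.178 FPKM in OIS, 4.23 FPKM in H3.3cs1 early and 0.855 FPKM in H3.3cs1 late, against 27.4 FPKM in growing. On FPKM + 1 it fell 24.1-fold in OIS, 5.43-fold in H3.3cs1 early and 15.3-fold in H3.3cs1 late, and in OIS it kept 0.649% of its growing FPKM. Its rank from the largest fall of all 12183 genes was 14 (OIS), 41 (H3.3cs1 early) and 24 (H3.3cs1 late). KIF4A, a chromokinesin that works with PRC1 at the midzone, was at 0.186 FPKM in OIS, 2.45 FPKM in H3.3cs1 early and 0.406 FPKM in H3.3cs1 late, against 10.96 FPKM in growing. It fell 10.1-fold in OIS, 3.47-fold in H3.3cs1 early and 8.50-fold in H3.3cs1 late. KIF20B, a kinesin-6 of the midbody, was at 0.716 FPKM in OIS, 1.82 FPKM in H3.3cs1 early and 0.491 FPKM in H3.3cs1 late, against 7.70 FPKM in growing, so that H3.3cs1 late was the lowest library. KIF14, which binds citron kinase at the midbody, was likewise lowest in H3.3cs1 late, at 0.589 FPKM in OIS, 1.06 FPKM in H3.3cs1 early and 0.117 FPKM in H3.3cs1 late, against 4.08 FPKM in growing.

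KIF23, the motor of the centralspindlin complex, was listed in a locus joined with PAQR5, a membrane progestin receptor gene, so KIF23 alone has no value here. The joined locus was at 11.9 FPKM in OIS, 7.79 FPKM in H3.3cs1 early and 5.74 FPKM in H3.3cs1 late, against 27.8 FPKM in growing. It was the mitotic entry with the smallest fall in OIS (2.24-fold). RACGAP1, the partner of KIF23 in centralspindlin, fell 8.61-fold in OIS.

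The motors that shape the bipolar spindle were each under 10% of their growing FPKM in OIS. KIF11, the kinesin-5 that pushes the spindle poles apart, was at 0.355 FPKM in OIS, 3.89 FPKM in H3.3cs1 early and 1.26 FPKM in H3.3cs1 late, against 14.8 FPKM in growing, and fell 11.7-fold in OIS, 3.24-fold in H3.3cs1 early and 6.99-fold in H3.3cs1 late. KIF15, a kinesin-12 that helps KIF11 to keep the spindle bipolar, was at 0.0847 FPKM in OIS, 0.491 FPKM in H3.3cs1 early and 0.155 FPKM in H3.3cs1 late, against 3.26 FPKM in growing. Expressed as a share of its growing FPKM, KIF11 kept 2.39% (OIS), 26.2% (H3.3cs1 early) and 8.53% (H3.3cs1 late), while KIF15 kept 2.60% (OIS), 15.1% (H3.3cs1 early) and 4.77% (H3.3cs1 late). KIFC1, a kinesin-14 that moves toward microtubule minus ends and gathers the poles, was at 1.48 FPKM in OIS, 4.23 FPKM in H3.3cs1 early and 1.15 FPKM in H3.3cs1 late, against 26.6 FPKM in growing, and fell 11.1-fold in OIS, 5.27-fold in H3.3cs1 early and 12.8-fold in H3.3cs1 late. Its name stood on 3 lines of the files, of which 2 were listed at 0 in every library.

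Motors that act on chromosomes and on microtubule ends fell by between 5.10-fold and 17.3-fold in OIS on FPKM + 1. By the share of growing FPKM left in OIS their order differs, with KIF18B at 0.984%, KIF2C at 1.24%, KIF18A at 7.58% and KIF22 at 15.4%. KIF2C, a kinesin-13 that takes microtubules apart at centromeres, was at 0.256 FPKM in OIS, 3.58 FPKM in H3.3cs1 early and 0.639 FPKM in H3.3cs1 late, against 20.7 FPKM in growing. It fell 17.3-fold in OIS, 4.74-fold in H3.3cs1 early and 13.3-fold in H3.3cs1 late. KIF18B, a kinesin-8 that works with KIF2C on astral microtubules, was at 0.106 FPKM in OIS, 1.60 FPKM in H3.3cs1 early and 0.406 FPKM in H3.3cs1 late, against 10.8 FPKM in growing, and fell 10.7-fold in OIS. KIF18A, the kinesin-8 that damps chromosome movement at metaphase, kept the largest share of its growing level at day 3. It was at 3.53 FPKM in H3.3cs1 early, against 6.68 FPKM in growing, a difference of 1.69-fold that missed the 2-fold size, and it was at 0.506 FPKM in OIS and 1.22 FPKM in H3.3cs1 late. KIF22, a kinesin-10 that pushes chromosome arms away from the poles, had the highest level of the mitotic motors with a locus of their own in each of the 4 libraries. It was at 4.26 FPKM in OIS, 9.75 FPKM in H3.3cs1 early and 4.80 FPKM in H3.3cs1 late, against 27.7 FPKM in growing. It fell 5.46-fold in OIS, 2.67-fold in H3.3cs1 early and 4.95-fold in H3.3cs1 late.

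From the early to the late time of H3.3cs1, 6 of the 12 mitotic kinesins were lower by 2-fold and all 12 were below 0, with a median difference of -0.97 in late minus early. Over all genes 3.4% were lower by 2-fold in this comparison. KIF20A, KIF2C, KIF4A, KIFC1, KIF11 and KIF18A were the 6, with differences between -1.496 and -1.03. The median mitotic kinesin had kept 22.9% of its growing FPKM at the early time and 4.54% at the late time. In late the remaining values lay at or under 1.26 FPKM for all but KIF22 and the joined KIF23,PAQR5 locus, where the added 1 compresses differences, and with a pseudocount of 0.1 the median was -1.72 and 11 of 12 were lower. Of all 12183 genes, 910 were lower with that pseudocount. After all libraries were scaled to an equal sum over named genes, 10 of 12 were lower, beside 807 of all 12183 genes, while the median of all genes moved to -0.26.

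OIS and H3.3cs1 late did not differ by 2-fold for any of the 12 mitotic kinesins, beside 8.51% of all genes lower and 11.2% higher in OIS. The median difference of OIS minus H3.3cs1 late was -0.19, with 8 genes lower and 4 higher in OIS. KIF14, KIF20B, KIFC1 and the KIF23,PAQR5 locus were the 4, with differences of 0.51, 0.20, 0.21 and 0.94. With a pseudocount of 0.1, which weighs values under 1 FPKM more, 5 genes were lower and 2 higher in OIS by 2-fold. Of all 12183 genes, 1535 were then lower and 1736 higher. The KIF23,PAQR5 locus was among those higher by 2-fold (1.038), at 11.9 FPKM in OIS against 5.74 FPKM in H3.3cs1 late, and was not low. For the other genes called there, at such levels and unknown fragment counts, the difference between these libraries was not resolved.

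Partners of the mitotic motors were read from a list of 15 genes, of which 13 fell in OIS (median -4.06), 14 in H3.3cs1 early (median -2.07) and 15 in H3.3cs1 late (median -3.37). The shares of all genes that fell were 8.17% (OIS), 3.96% (H3.3cs1 early) and 5.47% (H3.3cs1 late). AURKB, the kinase that regulates KIF2C and rides with KIF20A, was at 0.806 FPKM in OIS, 5.42 FPKM in H3.3cs1 early and 1.43 FPKM in H3.3cs1 late, against 29.8 FPKM in growing. TPX2, a spindle assembly factor that binds KIF11, was at 1.60 FPKM in OIS, 11.01 FPKM in H3.3cs1 early and 3.28 FPKM in H3.3cs1 late, against 43.2 FPKM in growing. CENPE, the kinesin-7 of kinetochores, which the symbol rule does not take in, fell 7.50-fold in OIS, 3.40-fold in H3.3cs1 early and 6.13-fold in H3.3cs1 late. The members that did not fall in OIS were ECT2, a cytokinesis factor recruited by centralspindlin, at 10.6 FPKM in OIS against 19.2 FPKM in growing, and the joined locus of CIT (citron kinase) and MIR1178, at 3.46 FPKM in OIS against 5.46 FPKM in growing. The CIT,MIR1178 locus was at 0.221 FPKM in H3.3cs1 late and, on FPKM + 1, 3.65-fold higher in OIS than in H3.3cs1 late.

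Because the mitotic kinesins moved together, the sequence before their start sites was read for 3 short motifs. The CCAAT box is bound by NF-Y, and the CHR element TTTGAA is bound by the MuvB core of the DREAM and MYB-MuvB complexes, which repress and activate late cell cycle genes. TTTAAA, a variant of the CHR element, was also searched. Windows of 250 bases before to 50 bases from the start came from RefSeq (GRCh38.p14, not the hg19 build of the expression files), both strands were searched, and the first window listed was used for a gene with several. KIF4B, the copy of KIF4A, was counted as a gene of its own. The 35 kinesin genes with a window held 42 sites, none of which overlapped another. CCAAT was present in 11 of 14 mitotic kinesins, in 3 of 12 transport kinesins and in 3 of 9 ciliary and other kinesins, beside 35.7% of all 27305 promoters. TTTGAA was present in 10 of 14 mitotic kinesins, in 1 of 12 transport kinesins and in 0 of 9 others, beside 15.4% of all promoters. A CCAAT together with TTTGAA or TTTAAA was found in 10 of 14 mitotic kinesins and in 9.49% of all promoters. Taking the nearest such pair in each of these 10, the second motif lay downstream of the CCAAT, with 9 to 122 bases between first bases (median 25.5). KIF14 and KIF23 each hold a further TTTAAA upstream of the CCAAT, 198 and 211 bases before the start. Of 11 genes on the list of mitotic partners with a window, 10 held CCAAT, 9 held TTTGAA and 9 held CCAAT with either other motif, so the motifs are not particular to the kinesins.

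The promoters of the 4 mitotic kinesins with the largest falls in OIS are shown to let these motifs be seen in place, with those of KIF5B, the transport kinesin with the highest level in growing, and KIF3B, the transport kinesin that rose in OIS, added for contrast after their values were seen. Capitals mark every match to the 3 motifs. A site on the other strand appears as its reverse complement.
KIF20A, chr5:138178862-138179161, plus strand: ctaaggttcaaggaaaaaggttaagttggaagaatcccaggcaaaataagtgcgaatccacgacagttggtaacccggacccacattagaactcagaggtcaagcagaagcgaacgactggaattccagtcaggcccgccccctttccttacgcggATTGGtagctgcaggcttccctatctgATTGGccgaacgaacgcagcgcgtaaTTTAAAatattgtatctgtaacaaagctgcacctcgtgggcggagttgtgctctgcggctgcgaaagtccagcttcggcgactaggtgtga
KIF2C, chr1:44739587-44739886, plus strand: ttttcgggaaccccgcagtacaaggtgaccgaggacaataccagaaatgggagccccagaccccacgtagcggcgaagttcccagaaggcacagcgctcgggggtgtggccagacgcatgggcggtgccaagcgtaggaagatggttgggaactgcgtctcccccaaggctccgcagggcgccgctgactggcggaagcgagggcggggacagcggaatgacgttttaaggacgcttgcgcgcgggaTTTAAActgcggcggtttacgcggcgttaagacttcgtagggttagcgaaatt
KIF11, chr10:92592880-92593179, plus strand: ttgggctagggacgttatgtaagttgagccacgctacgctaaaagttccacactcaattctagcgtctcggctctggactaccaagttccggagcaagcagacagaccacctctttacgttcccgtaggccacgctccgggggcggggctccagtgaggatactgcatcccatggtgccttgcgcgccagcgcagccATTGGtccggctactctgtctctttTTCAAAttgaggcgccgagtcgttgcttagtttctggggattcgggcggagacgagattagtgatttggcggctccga
KIFC1, chr6:33391573-33391872, plus strand: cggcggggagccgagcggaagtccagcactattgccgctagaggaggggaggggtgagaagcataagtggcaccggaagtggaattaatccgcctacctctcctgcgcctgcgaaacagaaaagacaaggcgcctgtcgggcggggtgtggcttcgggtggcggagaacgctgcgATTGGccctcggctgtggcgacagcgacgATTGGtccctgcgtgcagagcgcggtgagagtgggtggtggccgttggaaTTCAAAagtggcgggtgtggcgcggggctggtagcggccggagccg
KIF5B, chr10:32056376-32056675, minus strand: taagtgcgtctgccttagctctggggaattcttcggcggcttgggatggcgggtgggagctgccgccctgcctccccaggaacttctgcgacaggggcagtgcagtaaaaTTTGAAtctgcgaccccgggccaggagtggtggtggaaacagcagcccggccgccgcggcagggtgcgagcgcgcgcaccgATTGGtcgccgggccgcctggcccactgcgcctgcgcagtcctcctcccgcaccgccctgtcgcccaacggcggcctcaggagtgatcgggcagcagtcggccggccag
KIF3B, chr20:32277401-32277700, plus strand: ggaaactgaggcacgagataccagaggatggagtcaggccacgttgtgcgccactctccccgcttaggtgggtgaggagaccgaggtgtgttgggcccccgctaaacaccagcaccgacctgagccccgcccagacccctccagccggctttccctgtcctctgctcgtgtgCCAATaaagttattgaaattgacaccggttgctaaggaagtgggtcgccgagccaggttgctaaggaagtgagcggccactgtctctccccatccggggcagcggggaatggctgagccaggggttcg

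KIF20A and KIFC1 each hold a pair of CCAAT boxes on the other strand, with TTTAAA 26 bases after the nearer box in KIF20A and TTTGAA on the other strand 50 bases after it in KIFC1. KIF11 has a single CCAAT 53 bases before the start and TTTGAA 25 bases further on, both on the other strand. KIF2C, second among the mitotic falls in OIS, holds TTTAAA 3 bases before the start and no CCAAT in this window. KIF5B holds both CCAAT and TTTGAA, in the opposite order and 81 bases apart, and its level did not fall. A match describes these letters and not the binding of a factor.

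Of the 13 transport kinesins that reached 1 FPKM, 1 rose and 1 fell in OIS, and 0 rose or fell in either H3.3cs1 library. Of all genes, 9.13% were higher and 8.17% lower in OIS, 1.4% higher and 3.96% lower at the early time of H3.3cs1, and 3.51% higher and 5.47% lower at its late time. The transport counts were near these shares. The transport median difference was 0.16 in OIS, 0.18 at the early time of H3.3cs1 and 0.069 at its late time. Unnamed loci, which were left out, held 57.9% of all FPKM in H3.3cs1 early, 47.4% in OIS, 48.0% in H3.3cs1 late and 49.0% in growing. Named genes thus summed to 367086 FPKM in H3.3cs1 early, 517337 in OIS, 436428 in H3.3cs1 late and 438922 in growing. Scaling to an equal sum over named genes moved the median of all genes to -0.16 in OIS and 0.19 in H3.3cs1 early. It turned the sign of the transport median in OIS, to -0.075, and KIF13A then fell in OIS as well. Under that scaling, of all genes past 2-fold 37.6% were higher in OIS (52.8% unscaled), 48.3% in H3.3cs1 early (26.1% unscaled), 36.4% in H3.3cs1 late against early (61.7% unscaled) and 41.3% in OIS against H3.3cs1 late (56.8% unscaled). The highest of the 4 libraries was under 2-fold above the lowest in FPKM for 10 of the 13 genes, with a median ratio of 1.52. For the 12 mitotic kinesins the same ratio had a median of 36.6 and ran from 4.85 to 154. KIF1A, KIF5A and KIF5C, known mainly as neuronal motors, stayed under 0.43 FPKM in every library.

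**Figure D2:**
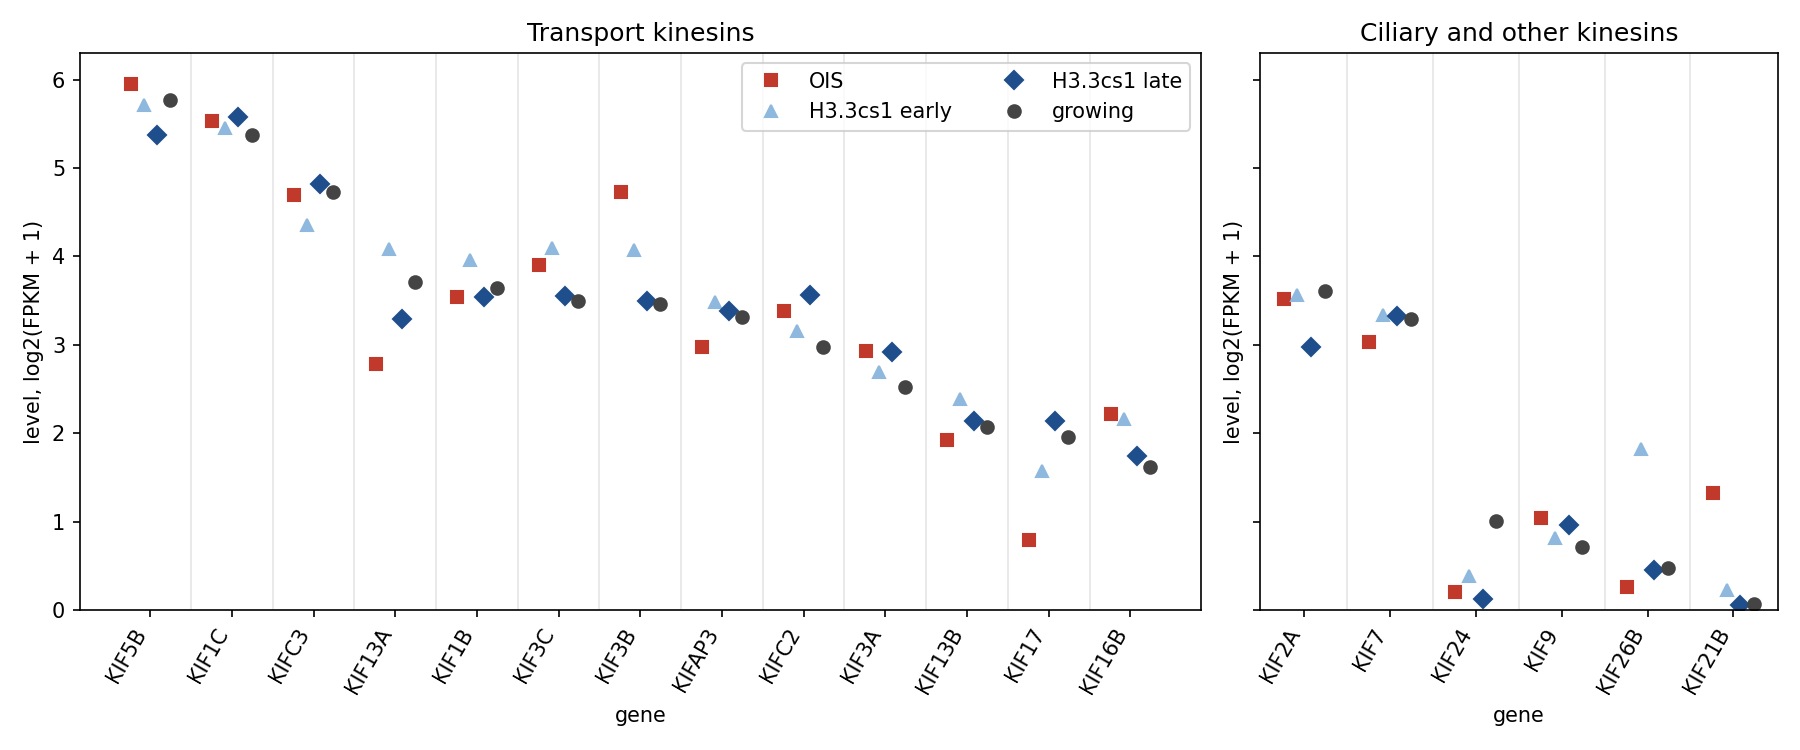
Levels of transport kinesins (left) and of ciliary and other kinesins (right) in log2(FPKM + 1), 1 point per library, genes ordered by their level in growing. Most genes hold the 4 points close together, while KIF3B and KIF21B stand out upward in OIS, KIF17 downward in OIS and KIF26B upward in H3.3cs1 early.

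KIF5B, the heavy chain of conventional kinesin (kinesin-1), had the highest level of all kinesins in OIS, H3.3cs1 early and growing. It was at 60.9 FPKM in OIS, 51.5 FPKM in H3.3cs1 early and 40.3 FPKM in H3.3cs1 late, against 53.4 FPKM in growing. KIF1C, a kinesin-3 that carries vesicles, was at 45.2 FPKM in OIS, 42.9 FPKM in H3.3cs1 early and 46.8 FPKM in H3.3cs1 late, against 40.5 FPKM in growing, and was the highest kinesin in H3.3cs1 late. KIF1C varied least among the transport motors that were compared, with a highest to lowest FPKM ratio of 1.16. KIFC3, a minus-end motor of cell junctions, was at 24.8 FPKM in OIS, 19.4 FPKM in H3.3cs1 early and 27.2 FPKM in H3.3cs1 late, against 25.5 FPKM in growing. KIF1B, a carrier of mitochondria and vesicles, was at 10.7 FPKM in OIS, 14.5 FPKM in H3.3cs1 early and 10.7 FPKM in H3.3cs1 late, against 11.5 FPKM in growing.

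The subunits of heterotrimeric kinesin-2, the motor of intraflagellar transport, did not move alike. KIF3B was at 25.5 FPKM in OIS, 15.8 FPKM in H3.3cs1 early and 10.3 FPKM in H3.3cs1 late, against 10.05 FPKM in growing, and rose 2.40-fold in OIS. Its motor partner KIF3A was at 6.62 FPKM in OIS, 5.44 FPKM in H3.3cs1 early and 6.59 FPKM in H3.3cs1 late, against 4.74 FPKM in growing, and the cargo-binding subunit KIFAP3 was at 6.84 FPKM in OIS, 10.2 FPKM in H3.3cs1 early and 9.41 FPKM in H3.3cs1 late, against 8.96 FPKM in growing, each within 2-fold. KIF3C, which can take the place of KIF3B, was at 13.97 FPKM in OIS, 16.1 FPKM in H3.3cs1 early and 10.7 FPKM in H3.3cs1 late, against 10.3 FPKM in growing. KIF17, a homodimeric kinesin-2, was at 0.726 FPKM in OIS, 1.98 FPKM in H3.3cs1 early and 3.39 FPKM in H3.3cs1 late, against 2.88 FPKM in growing, and fell 2.25-fold in OIS. OIS was thus the highest library for KIF3B and the lowest for KIF17. KIF3B was 2.35-fold higher and KIF17 2.55-fold lower in OIS than in H3.3cs1 late, although the first was 0.9998 on the log2 scale, just under 2-fold, after scaling to an equal sum.

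Among the endosomal kinesin-3 motors, KIF13A, which moves recycling endosomes, was at 5.86 FPKM in OIS, 16.0 FPKM in H3.3cs1 early and 8.83 FPKM in H3.3cs1 late, against 12.05 FPKM in growing. Its difference in OIS, -0.93, was just under 2-fold. KIF16B, a motor of early endosomes, was at 3.65 FPKM in OIS, 3.47 FPKM in H3.3cs1 early and 2.34 FPKM in H3.3cs1 late, against 2.08 FPKM in growing. KIF13B was at 2.78 FPKM in OIS, 4.21 FPKM in H3.3cs1 early and 3.40 FPKM in H3.3cs1 late, against 3.19 FPKM in growing, and KIFC2 at 9.45 FPKM in OIS, 7.91 FPKM in H3.3cs1 early and 10.8 FPKM in H3.3cs1 late, against 6.88 FPKM in growing, with no difference of 2-fold for either.

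The 13 ciliary and other kinesins were mostly low, with 6 of them at 1 FPKM or more in some library. Of these, 1 rose in OIS (9.13% of all genes), 1 rose in H3.3cs1 early (1.4% of all genes), and 0 fell in OIS, H3.3cs1 early or H3.3cs1 late (8.17%, 3.96% and 5.47% of all genes). KIF21B, a kinesin-4 that limits microtubule growth and is known from neurons and T cells, was at 1.495 FPKM in OIS, 0.169 FPKM in H3.3cs1 early and 0.0424 FPKM in H3.3cs1 late, against 0.0459 FPKM in growing. On FPKM + 1 it rose 2.39-fold in OIS. KIF26B, an atypical kinesin known from mouse kidney development, was at 0.202 FPKM in OIS, 2.53 FPKM in H3.3cs1 early and 0.369 FPKM in H3.3cs1 late, against 0.392 FPKM in growing, and rose 2.54-fold in H3.3cs1 early. It was 2.58-fold lower in H3.3cs1 late than in H3.3cs1 early. Each of these passed the filter through the library where it was high, so a difference was built into its selection. KIF24, which works at the centriole that gives rise to the cilium, was at 0.155 FPKM in OIS, 0.301 FPKM in H3.3cs1 early and 0.0866 FPKM in H3.3cs1 late, against 1.02 FPKM in growing, through which alone it passed. Its differences of -0.80 (OIS), -0.63 (H3.3cs1 early) and -0.89 (H3.3cs1 late) did not reach 2-fold. With a pseudocount of 0.1 they were -2.13 in OIS, -1.48 at the early time and -2.58 at the late time.

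KIF2A, a close relative of KIF2C that acts both in the spindle and in non-dividing cells, was at 10.5 FPKM in OIS, 10.8 FPKM in H3.3cs1 early and 6.89 FPKM in H3.3cs1 late, against 11.2 FPKM in growing. Of these kinesin-13 motors, KIF2A thus lay within 2-fold of growing in all 3 libraries while KIF2C fell by 4.74-fold or more. KIF24 and KIF2B belong to the same family. KIF24 was below growing in all 3 libraries, by under 2-fold with a pseudocount of 1 and by more than 2-fold with 0.1. KIF2B was at 0 in every library. KIF7, the ciliary kinesin of Hedgehog signalling, was at 7.19 FPKM in OIS, 9.13 FPKM in H3.3cs1 early and 9.04 FPKM in H3.3cs1 late, against 8.82 FPKM in growing. KIF9, a gene of motile cilia, was at 1.05 FPKM in OIS, 0.764 FPKM in H3.3cs1 early and 0.948 FPKM in H3.3cs1 late, against 0.642 FPKM in growing, and its antisense RNA KIF9-AS1 at 0.865 FPKM in OIS, 2.45 FPKM in H3.3cs1 early and 1.44 FPKM in H3.3cs1 late, against 0.9997 FPKM in growing. The handling of strand is not given in the sources used here, so reads of KIF9 and KIF9-AS1 cannot be told apart. KIF19 was listed at 0 in all 4 libraries, and KIF6, KIF12, KIF21A, KIF25, KIF26A and KIF27 stayed at or under 0.684 FPKM.

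Within one library, FPKM can be compared between genes per length, and the levels were summed over each kinesin class. Mitotic kinesins summed to 20.6 FPKM in OIS, 44.4 FPKM in H3.3cs1 early and 17.2 FPKM in H3.3cs1 late, against 189 FPKM in growing. Transport kinesins summed to 217 FPKM in OIS, 210.0 FPKM in H3.3cs1 early and 191 FPKM in H3.3cs1 late, against 192 FPKM in growing. The mitotic share of all kinesin FPKM was therefore 7.94% (OIS), 15.9% (H3.3cs1 early) and 7.61% (H3.3cs1 late), against 46.7% in growing. Without the joined KIF23,PAQR5 locus these shares were 3.52% (OIS), 13.5% (H3.3cs1 early) and 5.21% (H3.3cs1 late), against 42.8% in growing. A share of this kind does not depend on a common scaling of a library.

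**Figure D3:**
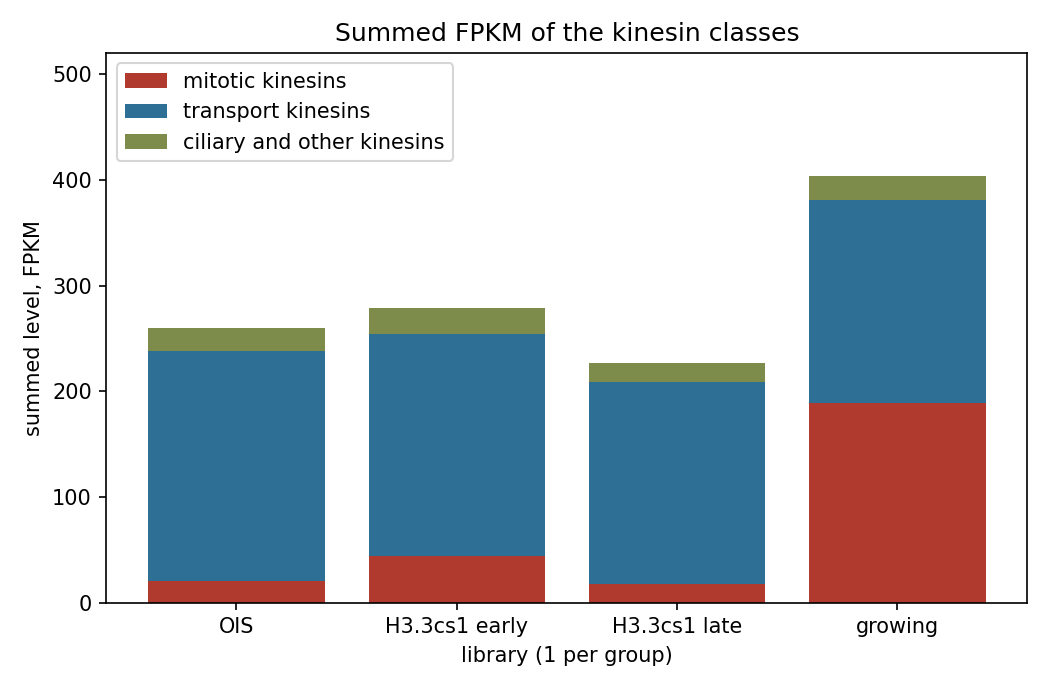
Summed FPKM of mitotic, transport, and ciliary and other kinesins in each of the 4 libraries, stacked from 0. The transport part lies between 191 and 217 FPKM in every library, and the mitotic part is 189 FPKM in growing and at most 44.4 FPKM elsewhere.

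**Figure D4:**
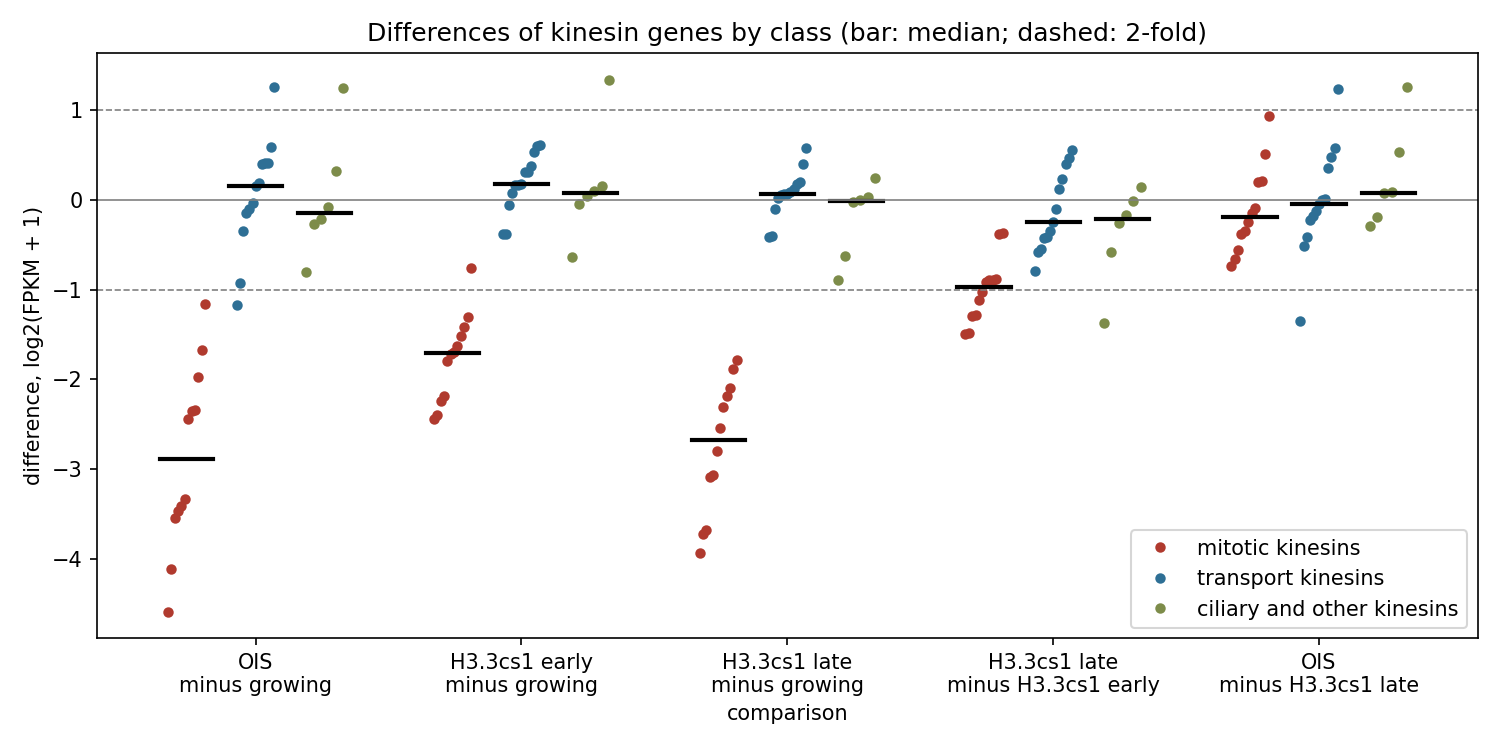
Differences on the log2(FPKM + 1) scale for 5 comparisons, each point 1 gene of a kinesin class that passed the filter, black bars the class median and dashed lines the 2-fold size. The mitotic points lie below 0 in all 3 comparisons with growing and in H3.3cs1 late minus early, whereas the transport medians lie between -0.25 and 0.18 in all 5.

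The 3 comparisons with growing share that library, so their differences are not independent of each other. OIS minus growing and H3.3cs1 late minus early share no library, and in them KIF20A had differences of -4.59 and -1.496, KIF2C of -4.11 and -1.48, and KIF5B of 0.19 and -0.35. KIF20A and KIF2C had the largest mitotic falls in both. KIF15, with the smallest mitotic fall in late minus early, had -1.97 and -0.37, and 6 of the 12 mitotic kinesins did not reach 2-fold there.

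Genes that load or oppose the transport motors were read from 4 further lists. Of 21 cargo adaptors and kinesin light chains, 0 rose or fell in OIS (9.13% and 8.17% of all genes), 1 rose in H3.3cs1 early (1.4% of all genes), and H3.3cs1 late had 2 that rose (3.51% of all genes). KLC4, a kinesin light chain, was at 10.3 FPKM in OIS, 12.9 FPKM in H3.3cs1 early and 13.8 FPKM in H3.3cs1 late, against 5.05 FPKM in growing, and was the gene that rose in H3.3cs1 early. In H3.3cs1 late it rose 2.45-fold. MAPK8IP2, a scaffold that binds light chains, was at 2.96 FPKM in H3.3cs1 late against 0.324 FPKM in growing, and rose 2.99-fold on FPKM + 1. MAPK8IP2 passed the filter through H3.3cs1 late alone, so a difference was built into its selection. Compared with H3.3cs1 late, 3 of the 21 were lower in OIS (8.51% of all genes), namely MAPK8IP2, KIDINS220, a kinesin-1 cargo, and TRAK1, a mitochondrial adaptor at 9.26 FPKM in OIS against 24.4 FPKM in H3.3cs1 late. KLC1, the light chain with the highest level, was at 73.8 FPKM in OIS, 65.1 FPKM in H3.3cs1 early and 84.0 FPKM in H3.3cs1 late, against 60.4 FPKM in growing. Of 15 intraflagellar transport genes, 1 rose in OIS (9.13% of all genes), IFT20, at 55.0 FPKM in OIS against 22.0 FPKM in growing, and no other passed 2-fold against growing.

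Of 23 measured dynein and dynactin genes, the opposing motor, 2 rose in OIS, near the share of all genes (9.13%), and 0 passed 2-fold in either H3.3cs1 library against growing. DYNLT3, a dynein light chain, was at 86.3 FPKM in OIS against 23.2 FPKM in growing, and DYNC1LI2, a light intermediate chain, at 92.3 FPKM in OIS against 45.3 FPKM in growing. DYNC1H1, the motor subunit, was at 50.6 FPKM in OIS, 63.4 FPKM in H3.3cs1 early and 55.8 FPKM in H3.3cs1 late, against 52.9 FPKM in growing. Tubulins, the building blocks of the tracks, had 6 of 14 measured genes lower in OIS (8.17% of all genes) and 5 in H3.3cs1 early (3.96% of all genes). In H3.3cs1 late 1 was lower (5.47% of all genes) and 1, TUBA4A, was higher (3.51% of all genes). The lower gene in H3.3cs1 late was TUBA1B, at 357 FPKM in H3.3cs1 late against 782 FPKM in growing. TUBB, the major beta-tubulin, was at 348 FPKM in OIS, 475 FPKM in H3.3cs1 early and 757 FPKM in H3.3cs1 late, against 1019 FPKM in growing. Tubulin genes are close copies of each other, so the split of reads among them is uncertain.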

How the data were processed

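The authors' deposited values are FPKM, 1 file per library with 1 value per locus, from poly(A)-selected TruSeq libraries per the labels' protocols. Tools named in the submitters' processing notes are Cufflinks 2.1.1, TopHat2 2.0.3 and Bowtie2, with the build hg19 and no role or order. The sources used here do not give counts, strand, the treatment of multi-mapped reads or any scaling between libraries. The header names in each file stand 1 column to the left of their values, and the sample of a file was taken from its record.

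The 2310 unnamed loci of 26468 were left out, lines with the same name were summed, and loci joining several genes were kept under the joined name. A pseudocount of 1 was added before log2. Genes with FPKM of at least 1 in at least 1 of the 4 libraries were compared (Python 3.11.15, pandas 2.3.3), and a size of 2-fold was used because 1 library per group allows no test. All members passing that filter could be named, with list genes that passed 2-fold or bind a described kinesin. Members, classes and lists were chosen with earlier results of these data known. Alternatives were a pseudocount of 0.1, no filter, a filter at 5, 3 rescalings, the highest line for repeated names, joined loci left out, and broader classes.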

Additional observations from a re-analysis of the deposited data

How the results depend on the processing

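No paired analysis was possible because each group holds 1 library. Over 9 alternatives, 394 of 421 class counts, medians and shares stayed within 1.5-fold of the reported values. Many of these could not move. Counts of 0 that stayed 0 are among them, and leaving out the filter could change no 2-fold call. Taking the highest line could change no kinesin value, as the further KIFC1 lines were at 0. No class median of 2-fold or more changed sign, but 6 medians of at most 0.19 in size did. The transport median in OIS against growing was -0.075 after scaling to an equal sum (0.16 as reported), and the other 5 were of ciliary and other kinesins. Every mitotic kinesin compared was 2-fold lower in OIS and H3.3cs1 late than in growing with the other pseudocount, under the 3 scalings (12 of 12), with the filter at 5 (10 of 10) and without joined loci (11 of 11). With KIF2A and KIF24 counted as mitotic, 12 of 14 were, since neither of these passed 2-fold. At the filter of 5, all but KIF22 and the KIF23,PAQR5 locus passed through growing alone, so a difference was built into their selection. With a pseudocount of 0.1, which gives more weight to values under 1 FPKM, mitotic medians were -4.13 in OIS and -3.99 in H3.3cs1 late against growing and -1.72 in late minus early, with 11 of 12 lower there. In OIS against H3.3cs1 late, 5 mitotic kinesins were then lower and 2 higher, beside 1535 lower and 1736 higher of all 12183 genes. That pseudocount also left 2 transport kinesins lower in OIS, and 1, 1 and 1 of the ciliary and other kinesins lower in OIS, H3.3cs1 early and H3.3cs1 late against growing, and 2 in late against early. Of all 12183 genes, 1523 (OIS), 698 (H3.3cs1 early) and 968 (H3.3cs1 late) were then lower against growing, and 910 in late against early. With a filter at 5 FPKM, which removes KIF17, KIF21B and KIF26B, the transport kinesins lower in OIS (against growing and against H3.3cs1 late) came to 0, and so did all calls among the ciliary and other kinesins. After scaling to an equal sum, 2 transport kinesins were lower in OIS and 1 (KIF13A) in late against early, 10 mitotic kinesins were lower in late against early, and 0 transport kinesins were higher in OIS than in H3.3cs1 late. Of all 12183 genes, 1338 were then lower in OIS against growing, 807 lower in late against early and 1001 higher in OIS than in H3.3cs1 late. Under those broader classes, with KIF21A and KIF21B counted as transport, 2 transport kinesins were higher in OIS against growing and 2 against H3.3cs1 late, 0 of the remaining ones were, and the mitotic share of kinesin FPKM in OIS was 12.04%. It was 3.52% without joined loci. KIF18A was no longer 2-fold lower in late against early after centring (-0.98) or quantile normalization (-0.94). Unknown fragment counts limit all values under 1 FPKM, where 9 of 12 mitotic kinesins stood in OIS.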
